A study of Mus musculus with 6 samples.

Results

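FOXC2 binding was described at 9 genes of the podocyte actin cytoskeleton, *Synpo*, *Actn4*, *Flna*, *Anln*, *Inf2*, *Myo1e*, *Myh9*, *Arhgap24* and *Arhgdia*, out of 21911 protein-coding genes of GENCODE M21 on GRCm38. *Synpo* encodes synaptopodin, and most of the others are genes in which mutations have been tied to focal segmental glomerulosclerosis (FSGS), nephrotic syndrome or related glomerular disease. The region of a gene took in 50 kb to each side of its start, its body and every annotated transcript start. These regions held 149 of the 40067 peaks of the ADR list and 167 of the 41075 peaks of the PBS list. Where peaks of the lists overlapped by at least 1 bp they were joined, which gave 197 intervals of 53255 in all.

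FOXC2, a forkhead transcription factor, was immunoprecipitated from sorted podocytes of mT/mG-Nphs2cre mice, in which a Cre driven by the podocyte podocin promoter switches a 2-colour membrane reporter and so marks podocytes for sorting. In the ADR group, mice received adriamycin, a drug that injures podocytes, at 18 mg/kg on days 0 and 7, and cells were sorted on day 9. The PBS group carried the same alleles and received phosphate-buffered saline in its place. Each condition had 3 samples, but the files hold 1 peak list per condition, called on pooled samples, so no test between ADR and PBS could be made and no value carries a replicate error; the ages of the mice are not given in the sources used here.

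Podocytes wrap glomerular capillaries with interdigitating foot processes, whose shape rests on bundles and networks of actin filaments. Synaptopodin, α-actinin-4, filamin A and anillin bind, cross-link or anchor these filaments, the formin INF2 nucleates and severs them, and the myosins encoded by *Myo1e* and *Myh9* pull on them or tie them to membranes. The remaining members act on small GTPases, the switches of actin assembly: ARHGAP24 turns off Rac, and the GDP dissociation inhibitor encoded by *Arhgdia* keeps GTPases in the cytosol.

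The letters around 11 summits are printed because they carry the sites on which the description turns: the sites of *Arhgap24* with the largest ratio of ADR to PBS fold, PBS-only sites in a stretch of *Myo1e* where most intervals were PBS only, strong sites called in 1 list at *Myh9* and *Inf2*, and strong sites called in both lists. Each run covers the summit and 100 bases to each side of it in the GRCm38.p6 reference, 5′ to 3′ on the strand of the gene. Distances in kb run from the gene start to the summit in the direction of transcription, negative upstream. Capitals mark matches to 1 of 6 consensus motifs on either strand: forkhead (NNAAANA, where the first N is A or G and each other N is C or T), WT1 (GNGNGGGNG, where the first N is any base, the second G or T and the last A or C), LMX1B (TTAATTA or TAATTAA), TEAD (NCATTCCN, where the first N is A or G and the last A or T), AP-1 (TGACTCA or TGAGTCA) and KLF (GGGNGNGG, where the first N is C or T and the last G or T).
*Arhgap24* at 348.5 kb, chr5:102829832-102830032, plus strand, called in both lists: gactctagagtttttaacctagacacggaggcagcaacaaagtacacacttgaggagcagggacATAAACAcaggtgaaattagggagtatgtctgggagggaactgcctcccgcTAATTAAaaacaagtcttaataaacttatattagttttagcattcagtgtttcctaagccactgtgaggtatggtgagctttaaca
*Arhgap24* at 332.1 kb, chr5:102813381-102813581, plus strand, called in both lists: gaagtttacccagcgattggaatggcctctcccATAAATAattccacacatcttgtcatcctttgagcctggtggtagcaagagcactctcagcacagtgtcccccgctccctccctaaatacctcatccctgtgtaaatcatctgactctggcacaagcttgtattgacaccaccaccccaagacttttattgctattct
*Myo1e* at 115.6 kb, chr9:70322827-70323027, plus strand, called in both lists: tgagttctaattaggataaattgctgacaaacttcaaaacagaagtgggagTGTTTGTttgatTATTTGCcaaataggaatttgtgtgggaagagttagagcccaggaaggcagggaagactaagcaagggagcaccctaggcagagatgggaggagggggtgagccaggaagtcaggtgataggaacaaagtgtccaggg
*Myo1e* at 83.7 kb, chr9:70290925-70291125, plus strand, PBS only: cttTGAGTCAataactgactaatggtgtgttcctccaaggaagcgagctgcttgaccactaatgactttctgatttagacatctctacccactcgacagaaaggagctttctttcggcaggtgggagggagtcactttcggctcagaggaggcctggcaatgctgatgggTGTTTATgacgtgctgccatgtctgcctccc
*Myo1e* at 77.4 kb, chr9:70284626-70284826, plus strand, PBS only: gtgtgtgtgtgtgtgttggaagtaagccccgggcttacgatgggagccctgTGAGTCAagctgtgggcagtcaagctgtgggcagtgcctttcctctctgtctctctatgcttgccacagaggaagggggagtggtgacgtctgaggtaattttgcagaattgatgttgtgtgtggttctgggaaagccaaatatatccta
*Myh9* at 64.6 kb, chr15:77777453-77777653, minus strand, ADR only: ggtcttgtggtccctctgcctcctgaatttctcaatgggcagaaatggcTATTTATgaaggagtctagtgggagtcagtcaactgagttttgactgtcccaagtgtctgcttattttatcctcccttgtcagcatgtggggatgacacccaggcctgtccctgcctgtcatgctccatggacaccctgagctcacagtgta
*Myh9* at -40.6 kb, chr15:77882724-77882924, minus strand, called in both lists: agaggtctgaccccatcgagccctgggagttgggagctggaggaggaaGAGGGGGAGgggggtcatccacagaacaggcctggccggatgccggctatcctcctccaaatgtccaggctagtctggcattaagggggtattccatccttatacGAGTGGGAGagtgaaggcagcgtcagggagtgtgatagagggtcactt
*Inf2* at -0.2 kb, chr12:112588456-112588656, plus strand, called in both lists: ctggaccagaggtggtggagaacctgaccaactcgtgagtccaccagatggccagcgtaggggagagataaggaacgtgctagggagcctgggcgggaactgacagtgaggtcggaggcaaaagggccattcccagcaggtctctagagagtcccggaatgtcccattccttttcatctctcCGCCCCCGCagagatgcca
*Inf2* at -33.8 kb, chr12:112554841-112555041, plus strand, ADR only: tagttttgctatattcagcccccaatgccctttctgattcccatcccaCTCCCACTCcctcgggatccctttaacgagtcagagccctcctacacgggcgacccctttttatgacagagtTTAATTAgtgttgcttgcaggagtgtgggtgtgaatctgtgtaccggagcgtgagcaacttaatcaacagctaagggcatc
*Actn4* at 31.4 kb, chr7:28930821-28931021, minus strand, called in both lists: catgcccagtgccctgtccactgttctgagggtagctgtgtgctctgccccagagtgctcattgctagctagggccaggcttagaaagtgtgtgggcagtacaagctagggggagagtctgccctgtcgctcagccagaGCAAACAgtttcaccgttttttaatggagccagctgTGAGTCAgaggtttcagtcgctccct
*Actn4* at 42.5 kb, chr7:28919759-28919959, minus strand, called in both lists: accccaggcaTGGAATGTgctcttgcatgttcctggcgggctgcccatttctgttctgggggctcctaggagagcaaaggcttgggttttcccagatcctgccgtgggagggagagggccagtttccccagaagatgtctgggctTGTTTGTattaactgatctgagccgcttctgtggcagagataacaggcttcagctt

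In these runs the *Arhgap24* site at 348.5 kb has a forkhead match, ATAAACA, 33 bp from the summit and an LMX1B match, TAATTAA, 18 bp from it, and the site at 332.1 kb has the forkhead match ATAAATA. The *Myo1e* site at 115.6 kb has 2 forkhead matches, which read TGTTTGT and TATTTGC on the printed strand. Both PBS-only sites of *Myo1e* have the AP-1 match TGAGTCA, 94 bp from the summit at 83.7 kb and 46 bp from it at 77.4 kb, and the one at 83.7 kb also has a forkhead match, TGTTTAT as printed, 73 bp from the summit. The ADR-only *Myh9* site has a forkhead match, TATTTAT as printed. The *Myh9* site at -40.6 kb has 2 WT1 matches. The ADR-only site upstream of *Inf2* has the LMX1B match TTAATTA and a WT1 match, and the run at the *Inf2* start has a WT1 match alone. The *Actn4* site at 31.4 kb has a forkhead and an AP-1 match, and the one at 42.5 kb a forkhead and a TEAD match. A match is a description of the letters and does not show which factor was bound.

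Fold here is the enrichment of a peak over its local background as the peak caller gave it. The median fold was 7.42 in the ADR list and 6.53 in the PBS list. For this reason the percentile of a peak within its own list is also given for a few sites and for the members together. All other ratios and the counts per gene rest on the fold alone, and percentiles can differ from them. At *Inf2* 7 intervals called in both lists were higher in ADR by fold and 4 by percentile, while at *Myo1e* 7 were higher by either. The depth behind the lists is unknown. A peak called in 1 list may lie just under the calling threshold in the other, since the smallest -log10 q was 1.35 in the ADR list and 1.34 in the PBS list. As a check of the label, the regions of 5 podocyte marker genes held 77 ADR peaks and 65 PBS peaks, those of 5 endothelial markers 18 ADR peaks and 27 PBS peaks, and those of 3 proximal tubule markers 25 ADR peaks and 15 PBS peaks. Regions of 3 mesangial markers held 17 ADR peaks and 20 PBS peaks, and those of 3 immune markers 17 ADR peaks and 16 PBS peaks. Peaks near a gene do not measure its expression, and the part of other cells in the results below was not tested.

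Summed over the 9 genes, the ADR list had 149 peaks and the PBS list 167. Of the intervals called in both lists, 67 had a higher fold in ADR (60.4%) and 44 a lower one. Over the whole series 52.6% of such intervals had a higher fold in ADR. The higher number of intervals with a higher ADR fold did not hold at each gene. At *Synpo* 9 were higher and 9 lower, at *Arhgdia* 4 higher and 6 lower, and at *Anln* 0 higher and 2 lower. By percentile and without *Arhgap24*, 47 were higher in ADR and 48 lower. More ADR than PBS peaks were found at 2 genes, *Arhgap24* with 26 ADR peaks and 21 PBS peaks and *Inf2* with 16 ADR peaks and 15 PBS peaks; of all coding genes 22.3% had more. Fewer ADR peaks were found at 6 genes, against 34.5% of coding genes, many of which had few peaks or none and so tied. The largest deficits, 7 peaks each, were at *Myo1e*, with 19 ADR peaks and 26 PBS peaks, and *Myh9*, with 28 ADR peaks and 35 PBS peaks. *Synpo* had 20 ADR peaks and 24 PBS peaks, *Actn4* 22 ADR peaks and 25 PBS peaks, *Flna* 6 ADR peaks and 8 PBS peaks, *Arhgdia* 10 ADR peaks and 11 PBS peaks, and *Anln* 2 in each list. Only at *Arhgap24* did the gap in the ADR direction exceed 1 peak.

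Of the 197 intervals, 37 (18.8%) were called in ADR only, 49 (24.9%) in PBS only and 111 (56.3%) in both. Over the whole series these shares were 24.3% for ADR only, 25.5% for PBS only and 50.1% for both, so the members had a lower share of ADR-only intervals. Without *Arhgap24* the ADR-only share was 16.2% of 167 intervals. *Arhgap24* had 10 ADR-only intervals and 4 PBS-only intervals, whereas *Myo1e* had 7 ADR-only and 12 PBS-only intervals and *Myh9* 6 ADR-only and 13 PBS-only intervals.

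**Figure D1:**
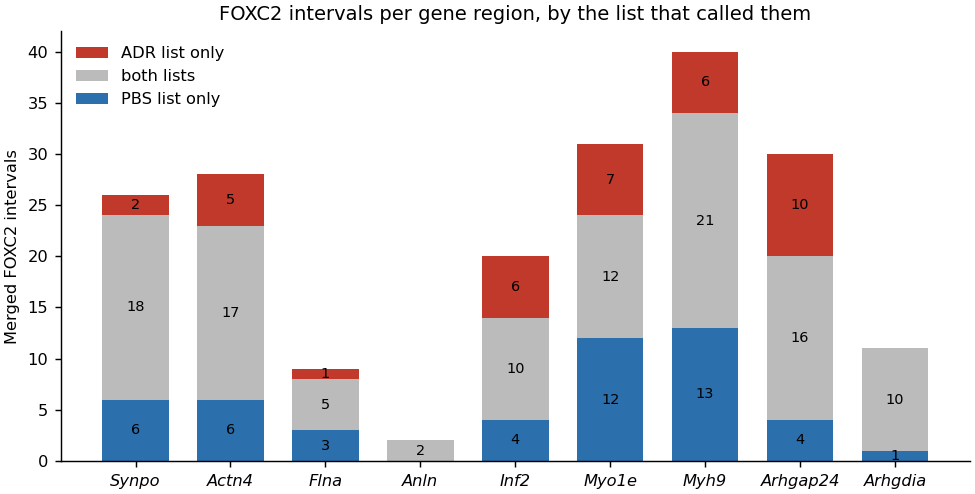
Number of merged FOXC2 intervals (y axis) in the region of each gene (x axis), stacked by the list that called them, ADR only above, both lists in the middle, PBS only below. *Arhgap24* has more ADR-only intervals (10) than PBS-only ones (4), *Myo1e* and *Myh9* have more PBS-only ones (12 and 13).

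Among the 111 intervals called in both lists, the ADR fold was at least 1.5 times the PBS fold at 41 (36.9%) and the PBS fold at least 1.5 times the ADR fold at 15 (13.5%). For all intervals called in both lists these shares were 23.9% and 17.5%. The median log2 ratio of ADR to PBS fold was 0.28 for the members and 0.05 for all such intervals. By percentile within each list, 59 of the 111 stood higher in ADR (53.2%), against 41.7% of all, and without *Arhgap24* 47 of 95 did (49.5%). Of the member intervals called in a list, 29 of 148 reached a fold of at least 20 in ADR (19.6%) and 17 of 160 in PBS (10.6%). Over all intervals called in a list the shares were 11.3% in ADR and 7.67% in PBS, so strong intervals were more frequent in ADR in the lists as a whole too. Of the 41 intervals at least 1.5 times higher in ADR, 22 lay in introns, where 48 were called in both lists and 5 were at least 1.5 times lower. Introns held 107 intervals in all, and of these 23 were ADR only and 36 PBS only. Upstream 12 of 32 were higher by that measure and 4 lower, and in exons 3 of 6 were higher and 0 lower. At transcript starts 4 of 21 were higher and 5 lower. Shares by place were not counted over the whole series, so a difference between places is not shown to be particular to the members.

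**Figure D2:**
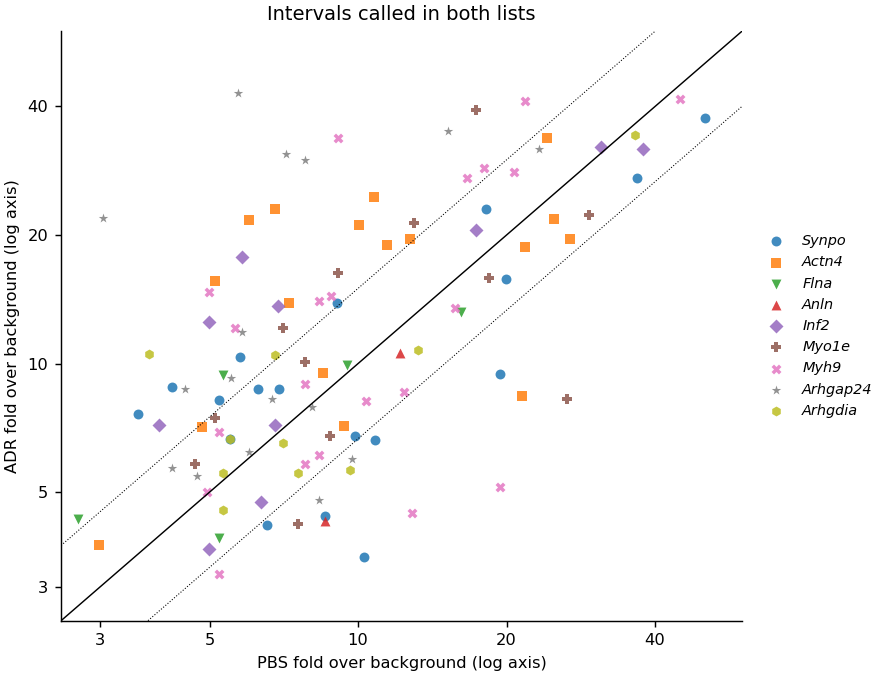
ADR fold (y axis) against PBS fold (x axis), both over local background on log axes, for the 111 intervals called in both lists, with a symbol per gene; the solid line marks equal fold and the dotted lines a ratio of 1.5 either way. Of these, 41 lie above the upper dotted line and 15 below the lower one, and *Arhgap24* holds the points farthest above the solid line.

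Of 65 distinct annotated transcript starts of the 9 genes, 31 had an ADR peak and 34 a PBS peak within 1 kb. Over all coding genes, starts marked as incomplete at the 5′ end included, 42.2% of starts had an ADR peak and 44.5% a PBS peak at that distance. In the annotation 11 of the member transcripts, Inf2-203 and 5 of *Flna* among them, are marked as incomplete at the 5′ end; in an alternative chosen after seeing the data, which leaves them out, 30 of 54 starts had an ADR peak and 31 of 54 a PBS peak. The strongest start in both lists was the one of the Synpo-202 transcript, followed in ADR by the start of *Inf2* and the start of the short *Arhgap24* transcript. The gene-record starts of *Synpo*, *Arhgap24* and *Flna* had no peak within 1 kb in either list.

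*Synpo* (chromosome 18, 60593973 to 60660142, minus strand), which encodes the actin-associated protein synaptopodin of foot processes, had its strongest binding deep in the gene record. The interval over the start of Synpo-202, 50.0 kb from the gene start (60609067 to 60610600), had folds of 37.6 in ADR and 50.4 in PBS. That places it at percentile 98.6 of the ADR list and 99.6 of the PBS list. A second strong interval, in an exon at 53.8 kb, had folds of 27.2 in ADR and 36.7 in PBS, and an intronic one between them at 52.1 kb 9.43 in ADR and 19.4 in PBS. So all 3 had a lower fold in ADR, with log2 ratios of -0.42, -0.43 and -1.04.

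Between 35 and 48 kb, where the starts of 5 further *Synpo* transcripts lie, 7 intervals were called and all 7 were in both lists. Here 4 were at least 1.5 times higher in ADR and 2 at least 1.5 times lower. The interval at 35.9 kb, over the starts of Synpo-201, Synpo-211 and Synpo-212, had folds of 7.61 in ADR and 3.57 in PBS. The neighbouring one at the Synpo-203 start, 37.1 kb, differed the other way, with 3.52 in ADR and 10.3 in PBS. The next one, at 37.9 kb, had 4.41 in ADR and 8.59 in PBS, and the interval just before the stretch, at 34.7 kb near the Synpo-205 start, 8.71 in ADR and 6.93 in PBS. The strongest of the stretch, in an intron at 40.8 kb, had 23.0 in ADR and 18.1 in PBS. The interval at 11.1 kb, near the Synpo-209 start, had 6.61 in ADR and 10.8 in PBS, and the one at 59.6 kb, at the Synpo-204 start, 6.78 in ADR and 9.88 in PBS. A weak ADR-only interval with a fold of 4.19 lay at 49.4 kb beside the Synpo-202 start. Upstream of the gene start, an interval at -46.2 kb nearer to *Ndst1* had 8.84 in ADR and 4.20 in PBS, and a PBS-only interval with a fold of 16.1 lay at -6.9 kb. Over the whole region 5 intervals were at least 1.5 times higher in ADR and 5 lower, with a median log2 ratio of -0.03. The bounds of this and the other stretches of a gene were chosen after the values were seen, so their counts are a description. No sequence is shown for *Synpo*.

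*Actn4* (chromosome 7, 28893248 to 28962340, minus strand) encodes α-actinin-4, the main cross-linker of actin bundles in foot processes. Higher ADR folds stood out upstream of its start. The 4 upstream intervals called in both lists all had a higher ADR fold, with a median log2 ratio of 1.35, although 3 of them lay nearer to *Eif3k* or *Map4k1*. The nearest, at -2.3 kb, had folds of 21.7 in ADR and 6.01 in PBS, and an ADR-only interval at -4.2 kb had 17.6. The interval at -45.5 kb had 23.0 in ADR and 6.78 in PBS, but its nearest coding start is that of *Map4k1*. At the *Actn4* start itself the fold was 18.8 in ADR and 21.8 in PBS.

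Inside *Actn4* the strongest interval of each list was called in both lists, with folds less than 1.5 times apart. The strongest in ADR, at 31.4 kb, had 33.8 in ADR and 24.1 in PBS. The strongest in PBS, at 36.8 kb, had 19.5 in ADR and 26.9 in PBS. Around the internal start of Actn4-204 the folds went both ways at neighbouring intervals. The interval at 42.5 kb had 8.41 in ADR and 21.5 in PBS, the one at 43.6 kb was called in ADR only with 11.6, and the one at 44.5 kb had 15.6 in ADR and 5.14 in PBS. Farther on, at 50.9 kb, the fold was 24.6 in ADR and 10.8 in PBS, and at 16.5 kb 21.1 in ADR and 10.03 in PBS. The interval at 67.2 kb, near the Actn4-203 start, had 19.5 in ADR and 12.7 in PBS, and a weak ADR-only interval at 55.7 kb, near the Actn4-206 start, had 4.87. Altogether 8 of 17 intervals called in both lists were at least 1.5 times higher in ADR and 1 was lower.

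*Flna* (chromosome X, 74223461 to 74249820, minus strand), the gene of the cross-linker filamin A, had weak binding of its own. None of its 15 annotated starts had an ADR peak within 1 kb, and 4 had a PBS peak, 2 of them starts of transcripts with an incomplete 5′ end. The 3 intervals nearest to a *Flna* start were all PBS only, with folds of 5.09, 6.03 and 6.78 at 3.3, 4.0 and 4.9 kb. The other 6 intervals of the region lay nearer to starts of *Emd*, *Rpl10*, *Dnase1l1*, *Taz* or *Atp6ap1*, the strongest at the *Rpl10* side with 13.2 in ADR and 16.2 in PBS.

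*Anln* (chromosome 9, 22332012 to 22389188, minus strand) encodes anillin, an actin-binding scaffold best known from the cleavage furrow of dividing cells, and had the fewest peaks of the 9 genes. Its start carried an interval with folds of 10.6 in ADR and 12.2 in PBS. The other, at -22.3 kb and nearer to *9530077C05Rik*, had 4.27 in ADR and 8.59 in PBS. No peak was called in the 57.2 kb gene body beyond the start in either list.

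*Inf2* (chromosome 12, 112588784 to 112615557, plus strand) encodes a formin that nucleates, and also severs, actin filaments. Its 2 strongest sites differed little between the lists. The start had folds of 32.1 in ADR and 31.0 in PBS, and an upstream interval at -12.2 kb 31.8 in ADR and 37.8 in PBS. Farther upstream, the interval at -33.8 kb was called in ADR only with a fold of 19.8, and the one at -28.3 kb had 17.7 in ADR and 5.83 in PBS. Inside the gene, an exonic interval at 15.4 kb near the Inf2-203 start had 12.5 in ADR and 4.98 in PBS. A weak interval just before the gene start, at -1.2 kb, had 3.68 in ADR and 4.98 in PBS. None of the 10 intervals called in both lists had a PBS fold at least 1.5 times the ADR fold, and 4 had an ADR fold that much higher. Of its 20 intervals, 6 lay nearer to *Adssl1* or *Tmem179*.

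*Arhgap24* (chromosome 5, 102481391 to 102897937, plus strand) encodes a GTPase activating protein that turns off Rac. In neither list was there a peak within 50 kb of its gene start or anywhere in the first 210 kb of the 416.5 kb gene. The ADR list had 26 peaks and the PBS list 21 peaks in the rest, each nearest to an *Arhgap24* start. From 310 kb on, 16 intervals were called, of which 9 were in both lists, 6 in ADR only and 1 in PBS only. Of the 9, 6 had an ADR fold at least 1.5 times the PBS fold and none a fold that much lower.

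The ratios of *Arhgap24* were the largest of the members. The interval at 348.5 kb had a fold of 42.9 in ADR and 5.72 in PBS, a log2 ratio of 2.91; it stood at percentile 99.5 of the ADR list and 39.0 of the PBS list. The interval at 332.1 kb had 21.9 in ADR and 3.05 in PBS, a log2 ratio of 2.84. Both sequences are printed above, and both hold a forkhead match. Higher ADR folds were also found at intronic intervals at 351.8 kb, with 31.0 in ADR and 7.14 in PBS, and at 386.8 kb, with 29.9 in ADR and 7.80 in PBS. Neither of these had a forkhead match within 100 bp of the summit. From 310 kb on, 4 of 16 intervals had one, and in the whole ADR list 25.1% of peaks did. At the start of the short *Arhgap24* transcript, 363.9 kb from the gene start, the folds were closer, 31.8 in ADR and 23.3 in PBS, and a weaker interval beside it at 363.0 kb had 9.25 in ADR and 5.52 in PBS. In the stretch from 210 to 310 kb, only the interval at 271.1 kb reached a fold of 20, with 35.1 in ADR and 15.2 in PBS. An intronic interval at 258.6 kb had 11.9 in ADR and 5.83 in PBS. The internal starts of the stretch were weak: the interval at 244.1 kb, near the Arhgap24-205 start, had 6.22 in ADR and 6.01 in PBS, and the one at 287.3 kb, at the Arhgap24-204 start, 4.79 in ADR and 8.33 in PBS. Of the 7 intervals called in both lists there, 2 were at least 1.5 times higher in ADR and 2 at least 1.5 times lower.

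**Figure D3:**
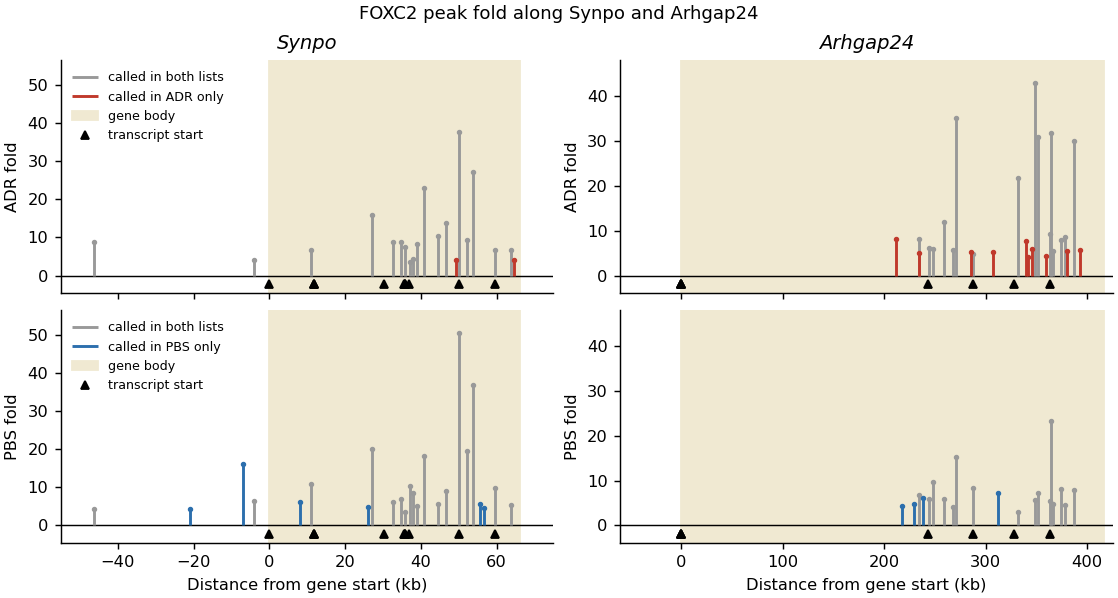
Fold over background of FOXC2 peaks (y axis; ADR above, PBS below) against distance from the gene start in kb (x axis) along *Synpo* (left) and *Arhgap24* (right), with a line per interval, coloured where only that list called it; shading is the gene body and triangles are transcript starts. At *Synpo* the tallest line stands at the Synpo-202 start in both lists, 37.6 in ADR and 50.4 in PBS, while at *Arhgap24* the lines from 310 kb on are taller in ADR, up to 42.9.

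*Arhgdia* (chromosome 11, 120578104 to 120581624, minus strand) lies among 8 other coding starts within 50 kb, and only 3 of its 11 intervals were nearest to its own start. The start had folds of 6.65 in ADR and 5.49 in PBS. An exonic interval at 2.3 kb had 10.5 in ADR and 3.77 in PBS, and a weak one at 1.7 kb was PBS only, with 3.74. The strongest of the region, at 8.7 kb and nearest to *P4hb*, had 34.2 in ADR and 36.4 in PBS. The region had no ADR-only interval.

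*Myo1e* (chromosome 9, 70207350 to 70399766, plus strand) encodes myosin 1e, a class I myosin that links actin to membranes. In the stretch from 35 to 90 kb, 10 of 14 intervals were PBS only, 3 were ADR only and 1 was in both lists. The 1 shared interval, at 36.5 kb, had a fold of 8.26 in ADR and 26.5 in PBS, a log2 ratio of -1.68. The strongest PBS-only intervals had folds of 20.5 at 83.7 kb, 12.6 at 41.7 kb and 11.9 at 77.4 kb. The 3 ADR-only intervals of the stretch were weak, between 5.01 and 5.69.

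On both sides of that stretch of *Myo1e* binding was shared more often. From 90 kb on, 5 intervals were called and all 5 were in both lists, although their nearest coding start was that of *Ccnb2*. The one at 115.6 kb was the strongest ADR interval of the gene, with 39.3 in ADR and 17.4 in PBS. The one at 119.0 kb was the strongest in PBS, with 22.3 in ADR and 29.3 in PBS. Before 35 kb, 6 of 12 intervals were in both lists, 2 of them at least 1.5 times higher in ADR. The *Myo1e* start had 7.47 in ADR and 5.14 in PBS, and an ADR-only interval beside it at 1.1 kb had 4.76.

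*Myh9* (chromosome 15, 77760587 to 77842175, minus strand) encodes the heavy chain of nonmuscle myosin IIA, the motor of contractile actin bundles, and had the most intervals, 40. Its start had folds of 28.1 in ADR and 20.7 in PBS. From 40 kb on, 4 of the 6 intervals called in both lists were at least 1.5 times higher in ADR. At 57.5 kb the fold was 41.2 in ADR and 21.8 in PBS, at 49.8 kb 33.7 in ADR and 9.11 in PBS, and at 48.5 kb 14.7 in ADR and 4.98 in PBS. An intronic interval at 64.6 kb was called in ADR only with a fold of 22.0, the highest of the 37 ADR-only intervals of the 9 genes. In the same stretch the interval at 41.4 kb went the other way, with 4.46 in ADR and 12.8 in PBS.

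Between the *Myh9* start and 40 kb, 8 of 14 intervals were PBS only, with folds up to 9.11, and 3 were ADR only. A PBS-only interval at 28.0 kb, near the Myh9-203 start, had a fold of 4.46. Upstream of the start, no interval was ADR only. The strongest there, at -40.6 kb, had 41.7 in ADR and 45.0 in PBS, and its nearest coding start is that of *Txn2*. At -14.5 kb the fold was 5.14 in ADR and 19.4 in PBS, the lowest log2 ratio of all members, -1.92, and at -21.02 kb a PBS-only interval had 13.0. An interval at -31.7 kb had 12.1 in ADR and 5.63 in PBS.

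**Figure D4:**
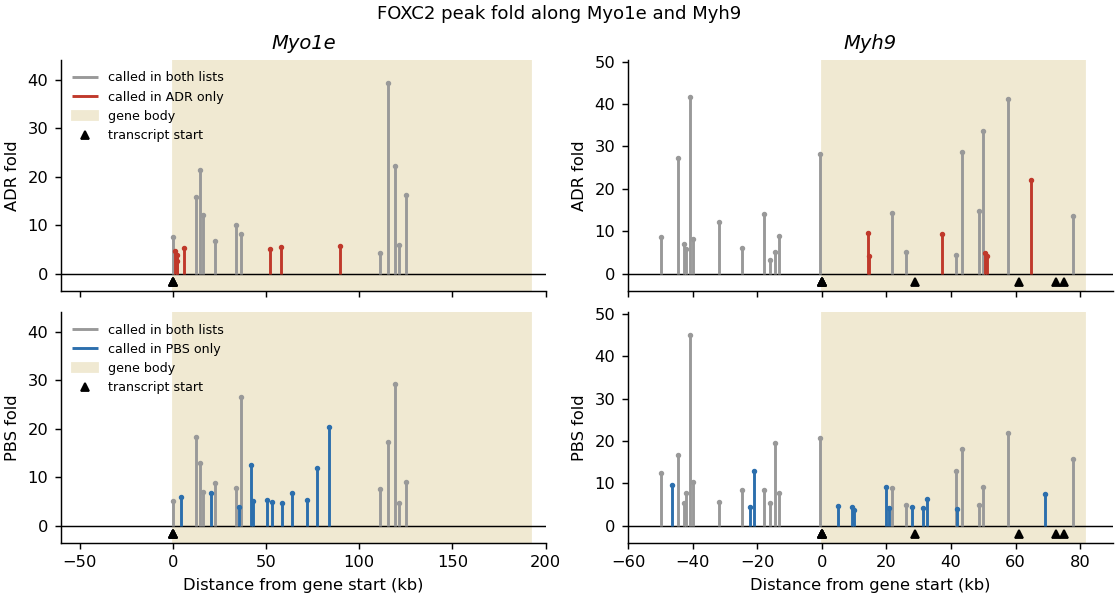
Fold over background of FOXC2 peaks (y axis; ADR above, PBS below) against distance from the gene start in kb (x axis) along *Myo1e* (left) and *Myh9* (right), drawn with a line per interval, coloured where only that list called it; shading is the gene body and triangles are transcript starts. In *Myo1e* from 35 to 90 kb, 10 of 14 intervals are PBS only, up to a fold of 20.5, and the ADR-only line of *Myh9* at 64.6 kb reaches 22.0.

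The motifs differed between peaks called in 1 list, at the members as over the whole lists. AP-1, the site of FOS and JUN dimers, was matched within 100 bp of the summit at 1 of the 37 peaks called only in ADR (2.70%) and 14 of the 49 called only in PBS (28.6%). In the whole lists 2.20% of the peaks called in ADR alone and 17.2% of those called in PBS alone had one. *Myo1e* held 7 of the 14, at 7 of its 12 PBS-only peaks, among them all 3 with a fold over 10; without *Myo1e* 7 of 37 PBS-only peaks of the members had a match (18.9%). *Arhgap24* had no AP-1 match at any of its 26 ADR peaks or 21 PBS peaks.

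Forkhead matches were found at 13 of 37 ADR-only peaks (35.1%; 36.7% in the whole list) and 7 of 49 PBS-only peaks (14.3%; 20.4% in the whole list). LMX1B, a LIM homeodomain factor of podocytes, was matched at 4 of 37 ADR-only peaks (10.8%; 6.89% in the whole list) and 1 of 49 PBS-only peaks (2.04%; 1.26% in the whole list). Those ADR-only peaks included the one upstream of *Inf2* and 2 in *Myh9* introns. WT1 matches were found at 30 of 149 ADR peaks (20.1%; 29.0% in the whole list) and 35 of 167 PBS peaks (20.96%; 28.6% in the whole list). TEAD was matched at 14 ADR peaks (9.40%; 9.25% in the whole list) and 17 PBS peaks (10.2%; 7.73% in the whole list). By class, TEAD was matched at 2 of 37 ADR-only peaks (5.41%; 10.8% in the whole list) and 1 of 49 PBS-only peaks (2.04%; 6.83% in the whole list). At the 41 ADR peaks with a fold at least 1.5 times that of PBS it was matched at 8 (19.5%; 12.8% of such peaks in the whole list). Within 50 bp of the summit that was 3 of 41 (7.32%, against 7.76% in the whole list). In the same class and within 100 bp, forkhead was matched at 14 (34.1%, against 27.5%) and WT1 at 6 (14.6%, against 29.8%). KLF was matched at 17 ADR peaks (11.4%; 18.6% in the whole list) and 27 PBS peaks (16.2%; 19.3% in the whole list). Its matches were at 3 of 37 ADR-only peaks (8.11%, against 10.4% in the whole list) and 11 of 49 PBS-only peaks (22.4%, against 13.3%). Median GC content of the windows was 54.2% for member peaks in both lists, against 54.2% in the whole ADR list and 55.2% in the whole PBS list.

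**Figure D5:**
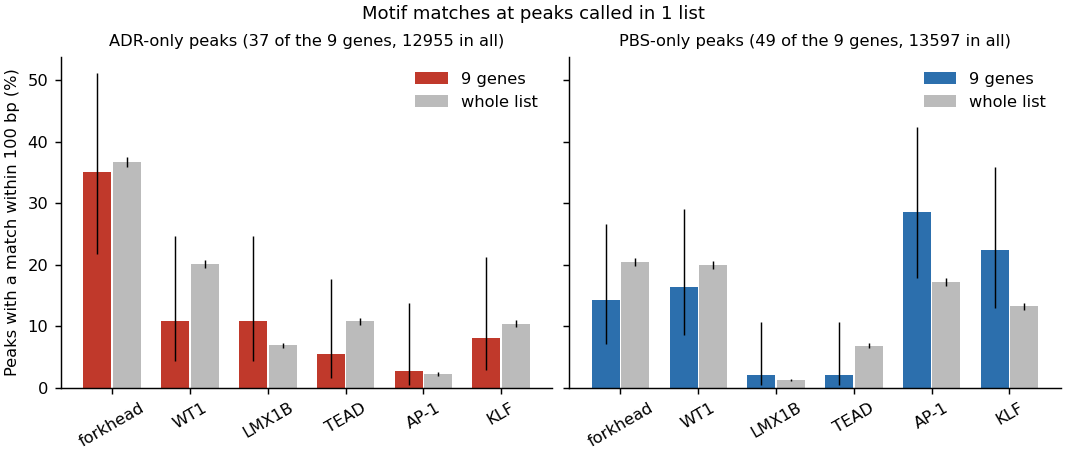
Percent of peaks with a motif match within 100 bp of the summit (y axis) for 6 motifs (x axis), in ADR-only peaks (left) and PBS-only peaks (right); coloured bars are peaks of the 9 genes, grey bars the whole list, and error bars 95% Wilson intervals, which cover counting error only. At the 9 genes AP-1 stands at 2.70% on the left and 28.6% on the right.

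For comparison, 27 close relatives of the members (among them other α-actinins, formins, class I myosins, nonmuscle myosins and regulators of small GTPases) had 155 ADR peaks and 167 PBS peaks, with more ADR peaks at 8 genes and fewer at 14. Among the larger gaps were those at *Fmnl2*, a formin, with 19 ADR peaks and 14 PBS peaks, *Diaph3*, also a formin, with 3 ADR peaks and 0 PBS peaks, and *Flnc* with 3 ADR peaks and 6 PBS peaks. Another 47 genes of the actin cytoskeleton had 449 ADR peaks and 458 PBS peaks, 14 of them with more ADR peaks and 21 with fewer. There *Kank1*, with 37 ADR peaks and 27 PBS peaks, and *Palld*, the gene of palladin, with 29 ADR peaks and 21 PBS peaks, gained most, and 6 genes, *Rock2* and *Tpm1* among them, had 5 peaks fewer in ADR. The share of genes with fewer ADR peaks was higher than that with more in all 3 lists, as it was over all coding genes.

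Closest to the 50 kb border on its inner side lay an interval upstream of *Arhgdia* with folds of 5.55 in ADR and 5.33 in PBS, and the nearest one outside, also upstream of *Arhgdia*, had 5.55 in ADR and 3.56 in PBS.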

How the data were processed

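FOXC2 chromatin immunoprecipitation followed by sequencing was done on podocytes of 3 ADR and 3 PBS samples. Per the labels and the study's methods, reads of 50 bp were aligned by the authors to GRCm38, peaks were called in the nf-core/chipseq workflow, and replicates of a condition were pooled; the caller's version and threshold, and the read depth, are not given in the sources used here. The deposited lists give each peak's position, a fold (a ratio over local background) and -log10 q. The deposited score and -log10 p columns were not used. All values come from these 2 pooled lists, so the precision of a fold is unknown, no test between conditions was possible, and every comparison is a description.

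Peaks were assigned to genes and transcript starts with GENCODE M21 (GRCm38); 11 member transcripts marked as incomplete at the 5′ end were counted among the transcript starts but not used to find the nearest start of an interval. Distances run in the direction of transcription, negative upstream. Peaks of the lists that overlapped by 1 bp were joined, and the highest fold per list was kept. A ratio of 1.5 was counted as higher or lower. Exact motif matches were sought on both strands up to 100 bp from each summit in GRCm38.p6, and matches could overlap; the joining and the motif search were tested on simulated data. Named sites were each gene's strongest interval per list, those at transcript starts, those of 1 list with a fold of at least 10, and those with a ratio of at least 2; for other gene lists, the largest gaps in each direction, of which 1 is not reported here. A few weaker sites were named after their values were seen, to describe a stretch. The members, lists and motifs were chosen with earlier results of these data known. Alternatives changed the window, the threshold, the overlap, the ratio and the motif window. Python 3.11.15, pandas 2.3.3, NumPy 2.4.6 and matplotlib 3.10.9 were used.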

Additional observations from a re-analysis of the deposited data

How the results depend on the processing

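No paired analysis was possible because the samples of a condition were pooled into 1 list before deposit, which also means that no replicate could be left out. Peak totals were 27 ADR and 33 PBS within 10 kb of the gene starts, and 84 in each list among the 20000 peaks with the smallest q. More ADR peaks were found at 1 gene within 50 kb of the gene starts alone, at 3 with -log10 q of at least 5 or with a fold of at least 5, and at 4 among those 20000. The ADR minus PBS difference changed sign within 10 kb at *Actn4* (2), *Myo1e* (2) and *Inf2* (-1), at *Actn4* also with a fold of at least 5 (1) and among the 20000 peaks (5), at *Flna* among the 20000 peaks (2), and at *Arhgdia* with -log10 q of at least 5 (1). With an overlap of at least 50% of both peaks, 57 member intervals were ADR only and 75 PBS only. That rule was not applied to the whole series, so these counts have no share to stand beside. A ratio of at least 2 left 20 intervals higher and 7 lower in ADR. Over the whole series it left 3433 higher and 1801 lower of 26703 called in both lists. Of the 65 starts, a peak covered 19 in ADR and 22 in PBS. Of the 35 starts of protein-coding transcripts, 20 had an ADR peak within 1 kb and 23 a PBS peak. Shares over all coding genes were not counted in these ways. Within 50 bp of the summit, forkhead matches fell to 27 ADR peaks (18.1%, against 13.7% in the whole list) and 20 PBS peaks (12.0%, against 9.82%). TEAD fell to 7 ADR peaks (4.70%, against 5.79%) and 9 PBS peaks (5.39%, against 4.40%). AP-1 fell to 4 ADR peaks (2.68%, against 1.98%) and 12 PBS peaks (7.19%, against 5.03%), and KLF to 11 ADR peaks (7.38%, against 11.2%). GTAAACA or ATAAACA alone, within 100 bp, was at 15 ADR peaks (10.1%, against 9.51%) and 13 PBS peaks (7.78%, against 6.67%). AP-1 within 50 bp was counted at 6 of the 49 PBS-only peaks (12.2%), against 9.61% in the whole list, so the members stood closer to the whole list there. In an alternative chosen after seeing the data, it was counted within 100 bp at 7 of 37 PBS-only peaks without *Myo1e* (18.9%), against 17.2% in the whole list. Some of these settings count fewer peaks or bases, and the causes of these changes were not tested. Dividing each member ratio by the median of all intervals left 38 higher and 16 lower in ADR, a count not made over the whole series. Read depth is unknown, so a site called in 1 list is not shown to be free of FOXC2 in the other condition.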
